A study of Mus musculus with 18 samples.

Results

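The 10 genes described here encode the machinery by which a cell presents its own peptides on classical MHC class I molecules. They were taken as a named group (the heavy chain genes H2-K1 and H2-D1, the light chain gene B2m, Tap1, Tap2, Tapbp, Psmb8, Psmb9, Psmb10 and Nlrc5) and were found by Entrez Gene ID among the 27179 genes of the count files. All 10 passed the filter on low counts and were tested with 12798 genes in all. RNA was sequenced from 18 samples, the CD69+ MHC I low and the CD69+ MHC I high thymocytes of 3 mice each of 3 genotypes, and the fractions were sorted on an antibody stain for H2-Kb. The genotypes were wild type (WT), HoilΔCd4 and Sharpin cpdm. HoilΔCd4 mice carry loxP-flanked Rbck1, the gene of HOIL-1, and a Cd4-Cre transgene that removes its promoter and first exons in the T lineage. Sharpin cpdm mice carry a germline mutation and lack SHARPIN in all of their cells, and they came from a C57BL/Ka background with only a short backcross to C57BL/6. The paper calls their background still largely C57BL/Ka and its differences from the C57BL/6 WT mice minor. Strain and the Sharpin mutation therefore cannot be told apart in any comparison with these mice. HOIL-1 and SHARPIN are subunits of the linear ubiquitin chain assembly complex, which acts upstream of NF-κB. The ages of the animals used for sequencing are not given in the sources used here.

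An MHC class I molecule is a heavy chain, such as H2-Kb from H2-K1 or H2-Db from H2-D1, joined to β2-microglobulin from B2m. Its peptides are cut by proteasomes, in which the immunosubunits Psmb8, Psmb9 and Psmb10 can take the place of the constitutive catalytic subunits Psmb5, Psmb6 and Psmb7. The TAP transporter, made of Tap1 and Tap2, carries the peptides into the endoplasmic reticulum, where tapasin (Tapbp) holds the empty class I molecule beside TAP during loading. NLRC5 is a transactivator of class I genes that works through the SXY module of their promoters, and interferons, in part through IRF factors, and NF-κB also act on several of these genes. Thymocytes carry little surface class I before positive selection and more of it as they mature, which is why the MHC I stain separates an earlier from a later CD69+ stage.

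H2-K1 (chr17:33996012-34000619), Tapbp (chr17:33919478-33929290), Psmb9 (chr17:34182030-34187330), Tap1 (chr17:34187556-34197225), Psmb8 (chr17:34198195-34201454), Tap2 (chr17:34204479-34216321) and H2-D1 (chr17:35263094-35267497) lie in the MHC on chromosome 17. B2m (chr2:122147687-122153082), Psmb10 (chr8:105935728-105938392) and Nlrc5 (chr8:94434335-94527272) lie outside it (RefSeq, GRCm38.p6). Promoter sequences show how the genes with the largest changes are laid out. The RefSeq promoter table (GRCm38.p6) held 8 of the 10 genes, and it held none for Tap2 and Nlrc5. The first 3 sequences below are the 180 bases before a start of each gene of the class I molecule itself. For H2-K1 the table lists 2 starts close together, both inside the gene span given above, and the window printed is that of the first. The fourth sequence is the whole interval of 225 bases between the opposite starts of Psmb9 and Tap1, written on the Tap1 strand. Capitals mark matches to the NF-κB consensus, to the interferon-stimulated response element (ISRE), to TGACG (the core of the X2 box) and to CCAAT or its reverse complement.
H2-K1 (chr17:34000348-34000527, minus strand): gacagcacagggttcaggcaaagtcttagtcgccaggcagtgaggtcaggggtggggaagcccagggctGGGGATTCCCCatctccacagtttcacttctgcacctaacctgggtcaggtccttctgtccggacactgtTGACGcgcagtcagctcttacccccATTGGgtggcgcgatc
H2-D1 (chr17:35262914-35263093, plus strand): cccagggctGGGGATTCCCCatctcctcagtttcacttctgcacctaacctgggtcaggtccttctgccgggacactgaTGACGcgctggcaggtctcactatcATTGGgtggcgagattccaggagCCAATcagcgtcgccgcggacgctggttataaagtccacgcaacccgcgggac
B2m (chr2:122147507-122147686, plus strand): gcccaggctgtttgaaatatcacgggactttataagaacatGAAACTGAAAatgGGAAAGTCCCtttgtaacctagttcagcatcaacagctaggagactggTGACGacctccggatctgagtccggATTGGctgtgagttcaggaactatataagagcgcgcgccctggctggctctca
Psmb9-Tap1 interval (chr17:34187331-34187555, plus strand): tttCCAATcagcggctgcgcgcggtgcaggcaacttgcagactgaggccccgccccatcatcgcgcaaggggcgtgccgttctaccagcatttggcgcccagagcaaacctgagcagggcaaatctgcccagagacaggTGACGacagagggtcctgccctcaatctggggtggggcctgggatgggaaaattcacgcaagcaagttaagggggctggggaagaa
The upstream sequences of both heavy chain genes carried, in the same order, an NF-κB consensus match (2 overlapping matches in each gene), TGACG and ATTGG, the reverse of CCAAT. B2m carried an ISRE match beginning at position -139 from its start, an NF-κB match at -126, TGACG at -78 and ATTGG at -53. The Psmb9-Tap1 interval carried TGACG, at -86 from the Tap1 start, and CCAAT next to the Psmb9 start. Both strands were searched in the windows from 250 bases before to 50 bases after each start. NF-κB matches were present in 3 of the 8 genes (H2-K1, H2-D1 and B2m) and in 6.93% of all 32851 promoters, and TGACG in 5 of 8 and in 20.8% of all. CCAAT was found in 6 of 8 and in 37.4% of all. The ISRE match was found in B2m and in 3.44% of all promoters, and the gamma-activated sequence TTCNNNGAA in Psmb8 and in 8.3% of all. The ISRE was searched as a single fixed pattern, so variants of it were neither marked nor counted. The lack of an ISRE match in a promoter, as in H2-K1 and H2-D1, is therefore no sign that it lacks such an element. The windows of Psmb9 and Tap1 overlap and share their letters. Those of H2-K1 and H2-D1 were identical at 176 of 240 aligned bases (73.3%). Matches within each of these pairs are therefore not independent, and the counts of genes with a match carry that limit. These matches are a description of the letters and no sign of binding, and TGACG was added to the search after the other motifs.

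Gene counts summed to 13979793 reads in the median sample and ranged from 10577966 to 16266128. Rbck1 RNA, which checks the deletion, lay between 0.271 and 8.94 CPM (gene counts scaled to library size with TMM factors) in the 6 HoilΔCd4 samples and between 217 and 268 CPM in the other 12. Sharpin RNA was 66.4 to 77.9 CPM in Sharpin cpdm and 81.2 to 116 CPM in the other samples. The cells carried T-lineage RNA (4971 to 5920 CPM over 8 markers), while several defining markers of cells removed by the sort were at or near 0, among them Pax5 (at most 0.064 CPM), Lyz2 (at most 1.56 CPM) and H2-Aa (at most 0.775 CPM), with Ly6g, S100a8, S100a9 and Ncr1 at 0 in every sample. Other markers of the same lists were not, such as Ighm (75.7 to 171.7 CPM), Ly75 (11.4 to 65.4 CPM), Nkg7 (0.543 to 49.7 CPM), Trdc (10.8 to 41.8 CPM) and Itgam (1.92 to 8.13 CPM). Of 5 class II markers Cd74 was the most abundant (6.23 to 40.0 CPM), and their sum was 19.6 to 22.1 CPM in WT MHC I low samples, 8.56 to 10.8 CPM in HoilΔCd4 and 11.8 to 14.4 CPM in Sharpin cpdm. Xist was between 3197 and 4471 CPM in all 3 WT mice, in HoilΔCd4 mouse 3 and in Sharpin cpdm mouse 2, and at most 7.49 CPM in the other mice except the MHC I high sample of HoilΔCd4 mouse 2 (64.6 CPM), so that genotype and sex were partly joined.

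Levels of the 10 genes differed widely when set per kilobase of transcript. In WT MHC I low thymocytes B2m led with 447 ± 6.91 CPM per kb (SD, n = 3), followed by Psmb8 (208 ± 2.72), H2-D1 (172 ± 7.27) and H2-K1 (131 ± 3.56). Tapbp (83.2 ± 2.42) and Tap2 (81.7 ± 2.76) came next, and their ranges over mice overlapped. Tap1 (67.8 ± 3.22), Psmb9 (50.7 ± 4.01), Psmb10 (41.9 ± 1.27) and Nlrc5 (28.9 ± 1.49) were lowest, with no overlap between neighbours in this order. In WT MHC I high thymocytes the order changed to B2m (1565 ± 150 CPM per kb), H2-K1 (1217 ± 16.4), H2-D1 (617 ± 25.7), Psmb8 (279 ± 17.7), Tapbp (174 ± 11.8), Tap1 (154 ± 1.35), Psmb9 (132 ± 2.18), Tap2 (92.5 ± 0.838), Nlrc5 (87.2 ± 6.55) and Psmb10 (75.4 ± 3.71). There the ranges of Tap2 and Nlrc5 overlapped and those of the other neighbours did not. H2-K1 thus stood below H2-D1 in the early fraction, at 0.566 to 0.822 of its level per kb over the 9 mice, and above it in the late fraction, at 1.79 to 2.07 times its level.

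**Figure D1:**
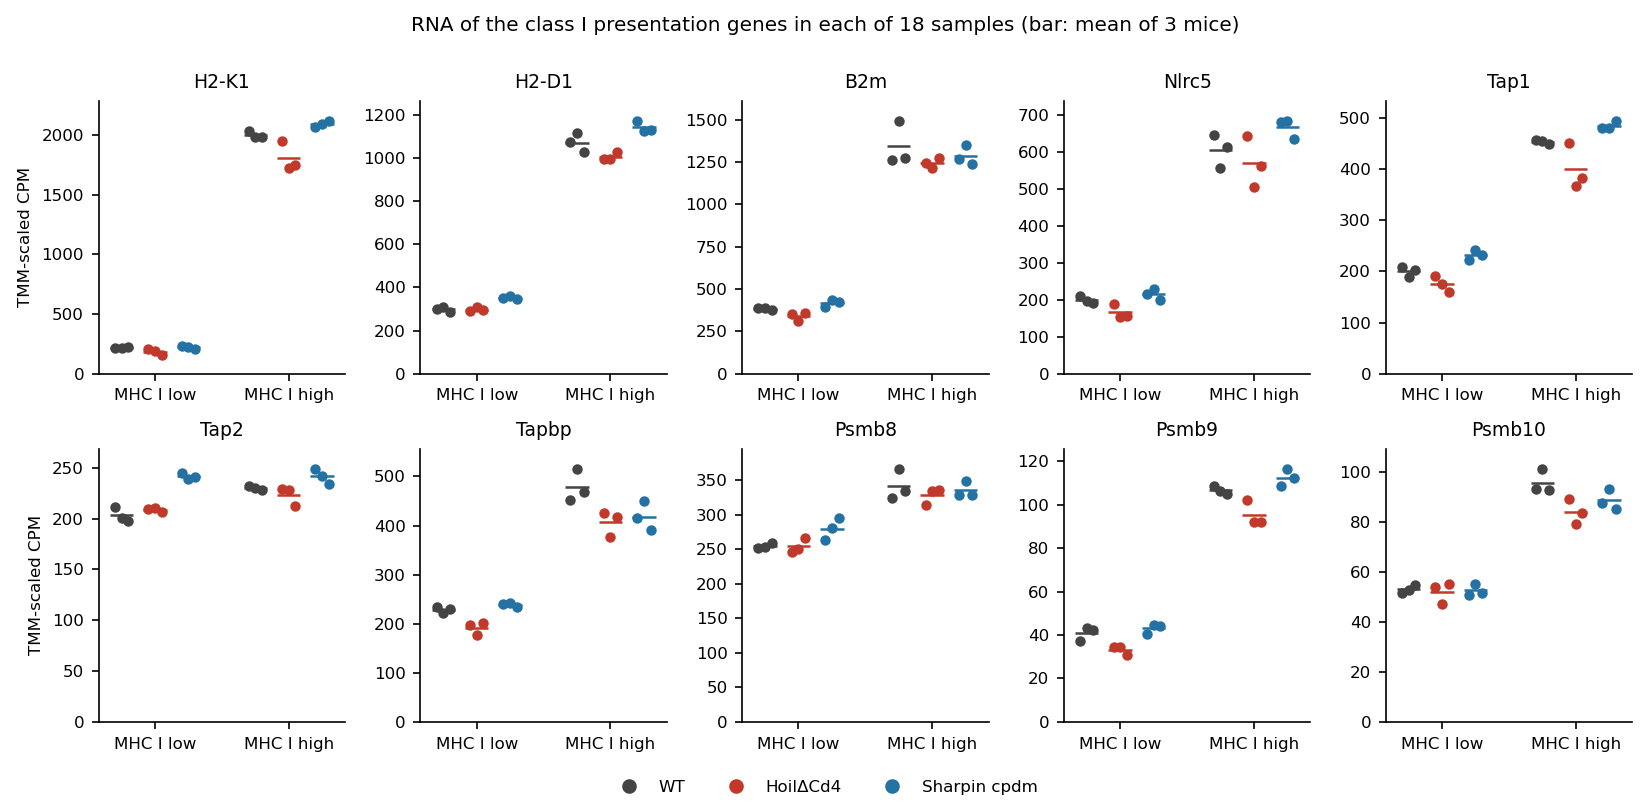
Each panel plots the TMM-scaled CPM of a gene (vertical axis, from 0) in the 9 MHC I low and the 9 MHC I high samples; points are mice 1, 2 and 3 from left to right and bars are means of 3 mice. H2-K1 rises from at most 232 CPM to at least 1725 CPM, whereas Tap2 lies between 197.9 and 248.8 CPM in all 18 samples.

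The first comparison asks how the machinery differed between the earlier and the later CD69+ stage. Class I RNA rose as a group in the MHC I high fraction, but by very unequal amounts. In WT mice all 9 genes tested were higher (27.5% of all genes were called higher), with a median log2 change of 1.17 against -0.00423 over all genes. H2-D1 rose 3.53-fold, B2m 3.41-fold, Nlrc5 3.05-fold, Psmb9 2.62-fold, Tap1 2.25-fold, Tapbp 2.06-fold, Psmb10 1.77-fold, Psmb8 1.32-fold and Tap2 1.13-fold. H2-K1 was 9.26-fold higher, which is given as a description with no test because the protein of this gene, H2-Kb, was the one stained to sort the cells. The sort may also bear on the other 9 genes, since surface H2-Kb needs B2m and peptide loading. Some marker lists of other cells moved with the fraction. The sum of 7 natural killer and innate-like markers was 15.3 to 18.4 CPM in MHC I low and 68.3 to 85.2 CPM in MHC I high samples, with Nkg7 34.7-fold and Trdc 2.1-fold higher in WT. Klrd1 (at most 3.84 CPM in any sample) and Eomes (at most 4.35 CPM) were also called higher in WT. Zbtb16 was not called in WT (limma, adjusted p = 0.164). Klrb1c was at most 0.445 CPM and Ncr1 was 0 in every sample. The sum of 8 B cell markers, nearly all of it Ighm, was 81.1 to 107 CPM in MHC I low against 147 to 178 CPM in MHC I high samples. The part of these markers in the rise of the class I genes was not tested.

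H2-D1, the other classical heavy chain, was not the target of the stain. It stood at 301, 310 and 285 CPM in the WT MHC I low samples and reached 1072, 1115 and 1025 CPM in the MHC I high samples of the same mice. The fractions did not overlap, and the difference was 1.82 ± 0.04 on the log2 scale (SE; limma, adjusted p = 2.38e-26). B2m, which every class I molecule needs, went from 386, 387 and 377 CPM to 1262, 1492 and 1275 CPM (log2 change 1.77 ± 0.05, adjusted p = 4.74e-24). Nlrc5 went from 212, 198 and 191.5 CPM to 647, 557 and 613 CPM (1.61 ± 0.06, adjusted p = 6.6e-20). These were the 3 highest changes among the genes tested in WT. Over the 9 mice of all genotypes the fold ran from 3.14 to 3.6 for H2-D1, from 2.93 to 3.92 for B2m and from 2.81 to 3.58 for Nlrc5, each higher in 9 of 9 mice. How much of these changes came from the sort on H2-Kb was not tested.

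The mutants showed changes of similar size, again with H2-D1, B2m and Nlrc5 the highest of the genes tested. In HoilΔCd4 mice 8 of the 9 tested genes were called higher (23.5% of all genes), and in Sharpin cpdm mice 8 of 9 (27.2% of all genes). The gene that was not called was Tap2 in both, with a log2 change of 0.09 ± 0.05 in HoilΔCd4 (adjusted p = 0.125) and 0.00098 ± 0.042 in Sharpin cpdm (adjusted p = 0.986), against 0.17 ± 0.04 in WT (adjusted p = 0.000477). Tap2 stood at 211, 201 and 198 CPM in WT MHC I low and at 232.5, 230.1 and 228 CPM in WT MHC I high. In Sharpin cpdm it was 245, 239 and 241 CPM in the low and 248.8, 242 and 234.5 CPM in the high fraction, so that its early samples lay above the late WT samples. H2-K1 was 9.73-fold higher in HoilΔCd4 and 9.34-fold higher in Sharpin cpdm. Leaving out any of the 9 mice did not alter these counts.

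**Figure D2:**
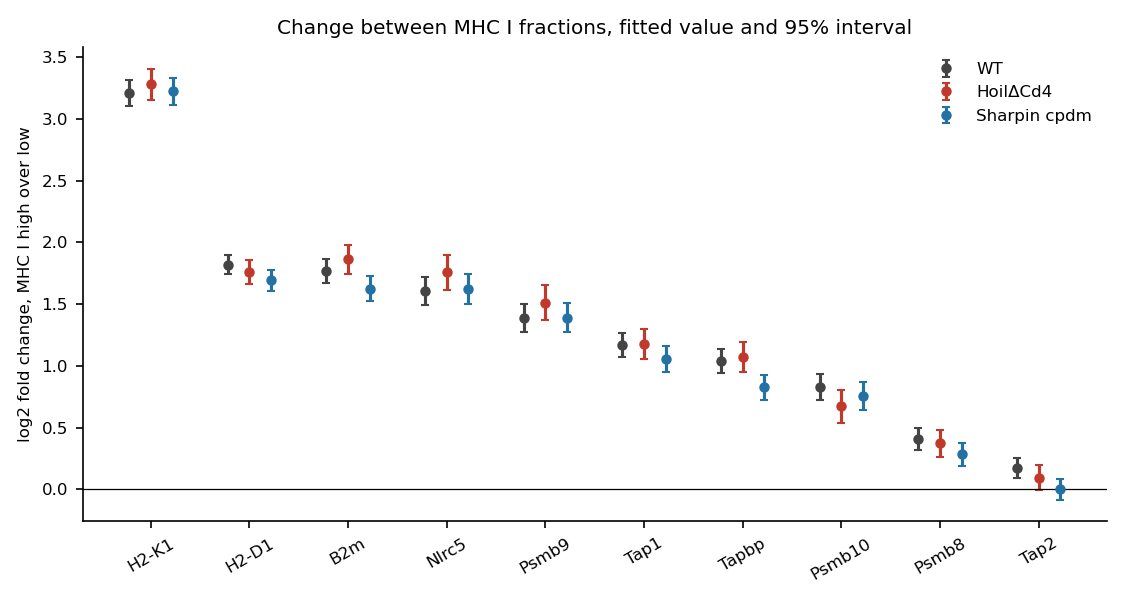
The vertical axis gives the log2 fold change of MHC I high over MHC I low samples, with its 95% interval, for each gene in WT, HoilΔCd4 and Sharpin cpdm mice (3 mice each). Genes are ordered by the WT value, from H2-K1 at 3.21, which was not tested, to Tap2 at 0.17, and the 3 genotypes lie close together for every gene.

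Psmb9, Tap1, Psmb8 and Tap2 are neighbours on chromosome 17 and lie within 34.3 kb inside the class II region. Their changes fell in the order in which they lie. Psmb9 rose by 1.39 ± 0.06 on the log2 scale, Tap1 by 1.17 ± 0.05, Psmb8, whose start is 10.6 kb from that of Tap1, by 0.40 ± 0.04, and Tap2, whose start is 16.9 kb away, by 0.17 ± 0.04 (WT, SE). Psmb9 and Tap1, which start 0.226 kb apart and read away from each other, were the pair with the larger changes. The order was the same in HoilΔCd4 (1.51, 1.18, 0.37 and 0.09) and in Sharpin cpdm mice (1.39, 1.05, 0.28 and 0.00098). The differences between genes within this order were not tested. The levels per kb ran otherwise, since Psmb8 had the highest RNA level of the 4 genes in both fractions.

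**Figure D3:**
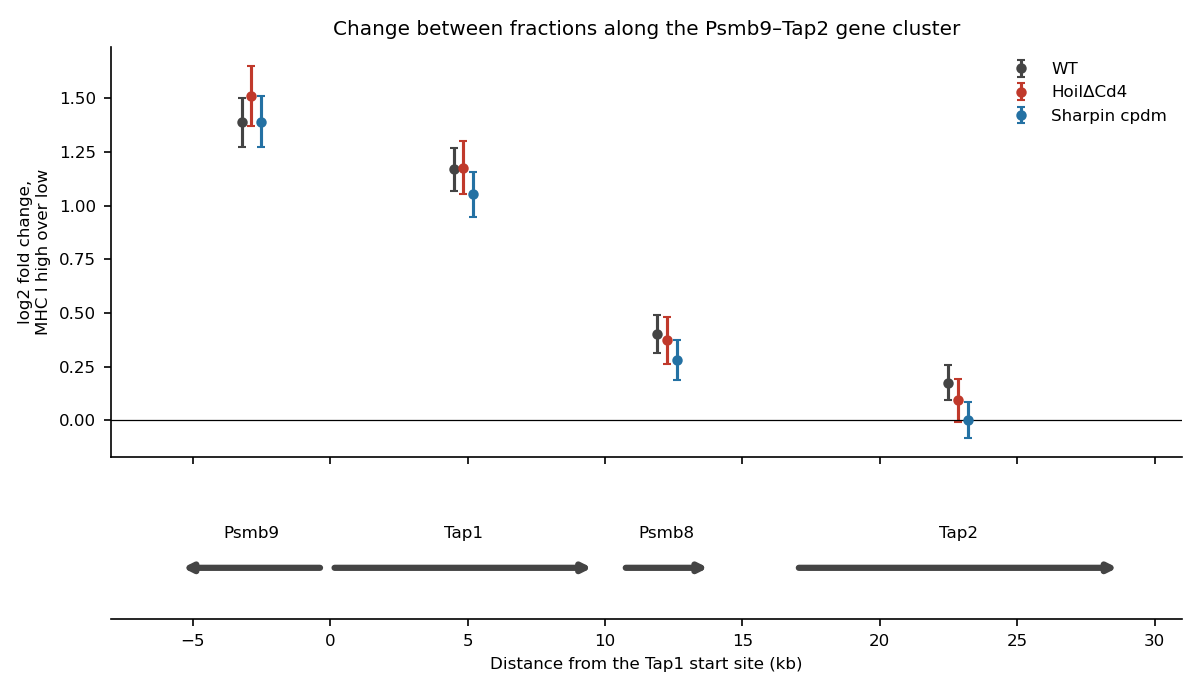
The upper panel plots the log2 fold change of MHC I high over MHC I low, with 95% intervals, for WT, HoilΔCd4 and Sharpin cpdm at the middle of each gene (shifted slightly by genotype), and the lower panel shows the genes as arrows in the direction of transcription, in kb from the Tap1 start. The values step down from Psmb9 at the left to Tap2 at the right in all 3 genotypes.

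The proteasome subunits describe which peptides can be cut, and immunosubunits and constitutive subunits went opposite ways between fractions. Psmb5, Psmb6 and Psmb7, the constitutive catalytic subunits, were all called lower in the MHC I high fraction of WT mice. Psmb6 fell by 0.25 ± 0.06 and Psmb7 by 0.18 ± 0.06 on the log2 scale (adjusted p = 0.000361 and 0.0122). Both were also called lower in HoilΔCd4 mice (adjusted p = 0.00976 and 0.0247) and in Sharpin cpdm mice (adjusted p = 0.0113 and 8.78e-05). Psmb5 was not called in HoilΔCd4 (-0.13 ± 0.09, adjusted p = 0.248) or in Sharpin cpdm mice (-0.16 ± 0.07, adjusted p = 0.0697). The log2 ratio of immunosubunit to constitutive subunit RNA per kb, as a mean of the 3 pairs, rose from 0.27 ± 0.06 to 1.35 ± 0.02 in WT (SD, n = 3). The rise was 1.05 ± 0.07 over the 9 mice, positive in 9 of 9 (exact sign-flip permutation test, two-sided, p = 0.00391, the smallest it can give). By pair it was 0.51 ± 0.12 for Psmb8/Psmb5, 1.65 ± 0.10 for Psmb9/Psmb6 and 1.0 ± 0.13 for Psmb10/Psmb7 (each 9 of 9 mice, exact p = 0.00391).

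Psmb8 was far above its partner in both fractions, with a log2 ratio in WT of 2.48 ± 0.16 in the early and 3.07 ± 0.04 in the late fraction. Psmb9 went from below to above Psmb6 (-0.69 ± 0.06 to 0.93 ± 0.10), and Psmb10 from below Psmb7 to about its level (-0.98 ± 0.05 to 0.04 ± 0.09). In the mutants the mean ratio differed from WT by -0.13 in HoilΔCd4 MHC I low and by -0.16 in HoilΔCd4 MHC I high (exact permutation p = 0.1 for each), and by 0.0052 (exact p = 1) and -0.04 (exact p = 0.1) in Sharpin cpdm. With 3 mice against 3 this test cannot go below 0.1. Psmb11, the thymoproteasome subunit of cortical epithelium, was between 0 and 0.4325 CPM.

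**Figure D4:**
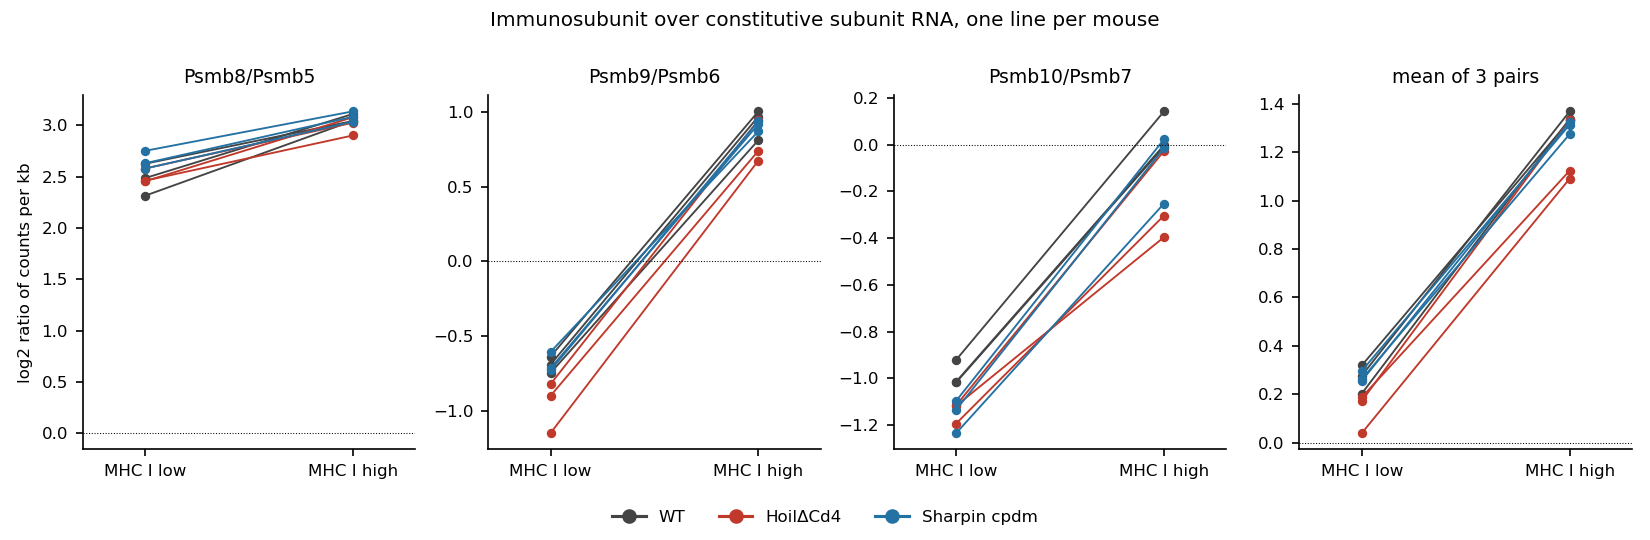
Each line joins the MHC I low and the MHC I high sample of a mouse, coloured by genotype, and the vertical axis, whose range differs by panel, gives the log2 ratio of counts per kb for the 3 subunit pairs and for their mean. All lines rise, with the mean over mice steepest for Psmb9/Psmb6 (1.65) and least steep for Psmb8/Psmb5 (0.51).

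The next comparisons ask whether loss of HOIL-1 or of SHARPIN changed the machinery within a fraction. Both mutants were set against the same WT samples, so the comparisons share their controls. Cells of every genotype were sorted on H2-Kb, so differences in H2-K1 within a fraction are limited by the sort. The p-values and calls of H2-K1 below, and the counts that include it, carry that limit. The fitted differences from WT were small, from -0.29 to 0.24 on the log2 scale. In HoilΔCd4 MHC I low thymocytes 1 of 10 genes was called lower (0.563% of all genes), Tapbp, the peptide-loading chaperone. It stood at 197, 177 and 201 CPM against 234, 221 and 231 CPM in WT, with no overlap, and fell by 0.26 ± 0.06 on the log2 scale (1.19-fold lower, adjusted p = 0.0445). Psmb9 (-0.29 ± 0.07, adjusted p = 0.0504), Nlrc5 (-0.28 ± 0.07, adjusted p = 0.0681), H2-K1 (-0.23 ± 0.07, adjusted p = 0.104), Tap1 (-0.21 ± 0.07, adjusted p = 0.141) and B2m (-0.16 ± 0.06, adjusted p = 0.27) had negative values that did not pass the test. H2-D1, Tap2, Psmb8 and Psmb10 were within 0.04 of WT, and the median over the 10 genes was -0.19 against -0.00141 over all genes. Tapbp lost its call without HoilΔCd4 mouse 2 (adjusted p = 0.254) or 3 (0.0833), WT mouse 1 (0.231) or 3 (0.162), or Sharpin cpdm mouse 1 (0.058), without a block for the mouse (0.0573), without a filter (0.0932) and with only the groups compared (0.0561). Psmb9 was called without WT mouse 1 (0.0171) or Sharpin cpdm mouse 1 (0.0474), by edgeR (0.045) and DESeq2 (0.0265), and under 4 more settings. With Xist as a covariate Tapbp was not called (-0.20, adjusted p = 0.145), and H2-K1 (-0.32, 0.00981), Psmb9 (-0.31, 0.0419) and Tap1 (-0.26, 0.0463) were. Without HoilΔCd4 mouse 1 there were 4 calls, with H2-K1 (0.0181), Tap1 (0.0335) and Nlrc5 (0.00532) beside Tapbp.

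In HoilΔCd4 MHC I high thymocytes 2 of 10 genes were called lower (2.81% of all genes), and all 10 fitted values were below 0, with a median of -0.14. Tapbp stood at 426, 377 and 417 CPM against 453, 515 and 469 CPM in WT (-0.23 ± 0.06, adjusted p = 0.0161), again without overlap. Tap1, the transporter subunit next to Psmb9, was at 451, 367 and 383 CPM against 456.5, 455 and 449 CPM (-0.20 ± 0.06, adjusted p = 0.035). HoilΔCd4 mouse 1 lay within the WT range of Tap1 and the other 2 mice below it. H2-K1 was at 1952, 1725 and 1750 CPM against 2034, 1987 and 1987 CPM, a difference of -0.16 ± 0.06 that did not pass (adjusted p = 0.115). Neither call was left without HoilΔCd4 mouse 2 (adjusted p = 0.234 for Tapbp and 0.438 for Tap1), HoilΔCd4 mouse 3 (0.063 and 0.272) or WT mouse 3 (0.13 and 0.262), and Tap1 was also lost without WT mouse 1 (0.176) and by edgeR (0.155) and DESeq2 (0.15). With Xist as a covariate Tapbp was not called (-0.18, adjusted p = 0.0682) and H2-K1 was (-0.20, 0.0446). Without HoilΔCd4 mouse 1 there were 5, with H2-K1 (0.0262), Nlrc5 (0.037) and Psmb10 (0.0486) added.

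In Sharpin cpdm mice the calls in the early fraction were in the higher direction. In MHC I low thymocytes 3 of 10 genes were called higher (5.31% of all genes), H2-D1, Tap1 and Tap2, and 9 of 10 fitted values were above 0, with a median of 0.12. H2-D1 was at 349, 358 and 346 CPM against 301, 310 and 285 CPM in WT (0.24 ± 0.05, 1.18-fold, adjusted p = 0.000996). Tap2 was at 245, 239 and 241 CPM against 211, 201 and 198 CPM (0.24 ± 0.05, adjusted p = 0.000987). Tap1 was at 222, 241 and 231.5 CPM against 208, 189.6 and 202 CPM (0.21 ± 0.06, adjusted p = 0.0172). No Sharpin cpdm sample overlapped the WT samples for these 3 genes, which is a description because the share of all genes without overlap was not counted. Tap1 lost its call without Sharpin cpdm mouse 2 (adjusted p = 0.149), Sharpin cpdm mouse 3 (0.0562) or WT mouse 2 (0.0589), and with Xist as a covariate (0.121), where B2m was called instead (0.19, 0.0375).

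In Sharpin cpdm MHC I high thymocytes limma called none of the 10 genes (8.62% of all genes were called in either direction), 3 had an unadjusted p under 0.05, and edgeR and DESeq2 called 0 as well. Tapbp had the lowest adjusted p, at 414, 450 and 391 CPM against 453, 515 and 469 CPM in WT (-0.15 ± 0.05, adjusted p = 0.0693), and it was called without HoilΔCd4 mouse 2 (0.045) or Sharpin cpdm mouse 2 (0.036). H2-D1 (0.11 ± 0.04) and Nlrc5 (0.13 ± 0.06) had values above WT that did not pass (adjusted p = 0.106 and 0.203).

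More genes were called between the mutants than between either mutant and WT. In MHC I low thymocytes 8 of 10 genes were lower in HoilΔCd4 than in Sharpin cpdm mice (4.36% of all genes), all but Psmb8 and Psmb10. Tap1 had the largest difference, at 190.1, 174.5 and 160 CPM in HoilΔCd4 against 222, 241 and 231.5 CPM in Sharpin cpdm (-0.42 ± 0.07, 1.34-fold lower, adjusted p = 0.000101). Nlrc5 was at 189, 153 and 157.5 CPM against 217, 229 and 201 CPM (-0.39 ± 0.08, adjusted p = 0.00122), and Psmb9 at 34.6, 34.6 and 30.7 CPM against 40.3, 44.7 and 44.2 CPM (-0.38 ± 0.08, adjusted p = 0.00137). For none of the 8 genes did the samples of the mutants overlap. This is a description, since the genes were picked by adjusted p and the share of all genes without overlap was not counted. Tapbp (-0.32 ± 0.07), B2m (-0.30 ± 0.06), H2-K1 (-0.28 ± 0.07), H2-D1 (-0.25 ± 0.05) and Tap2 (-0.21 ± 0.05) followed, with adjusted p from 0.00213 to 0.0135. Psmb8 (-0.13 ± 0.06, adjusted p = 0.186) and Psmb10 (-0.02 ± 0.07, adjusted p = 0.91) did not pass. The count stayed between 6 and 8 with any mouse left out. H2-K1 lost its call without HoilΔCd4 mouse 3 (-0.15, adjusted p = 0.187), Sharpin cpdm mouse 1 (0.0605) or Sharpin cpdm mouse 2 (0.0631), and Tap2 without HoilΔCd4 mouse 1 (0.0573) or 3 (0.0606).

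In MHC I high thymocytes 5 of 10 genes were lower in HoilΔCd4 than in Sharpin cpdm mice (3.02% of all genes), Tap1 (-0.30 ± 0.06, adjusted p = 0.0017), Psmb9 (-0.26 ± 0.07, adjusted p = 0.0161), Nlrc5 (-0.26 ± 0.07, adjusted p = 0.0199), H2-K1 (-0.22 ± 0.06, adjusted p = 0.0223) and H2-D1 (-0.18 ± 0.05, adjusted p = 0.0221). Tap1 was at 451, 367 and 383 CPM against 479, 479 and 494 CPM. H2-K1 was at 1952, 1725 and 1750 CPM against 2063, 2092 and 2118 CPM. The sort on H2-Kb limits this comparison of H2-K1. Among the 5 genes Nlrc5 was the one whose samples overlapped. The remaining genes, B2m, Tap2, Tapbp, Psmb8 and Psmb10, had values between -0.12 and -0.04. Calls fell to 0 without HoilΔCd4 mouse 2, to 1 without HoilΔCd4 mouse 3 or Sharpin cpdm mouse 2, and to 3 without Sharpin cpdm mouse 1 or 3. Tap1 was the call left with mouse 3 of HoilΔCd4 or mouse 2 of Sharpin cpdm out, and its adjusted p without HoilΔCd4 mouse 2 was 0.0868.

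**Figure D5:**
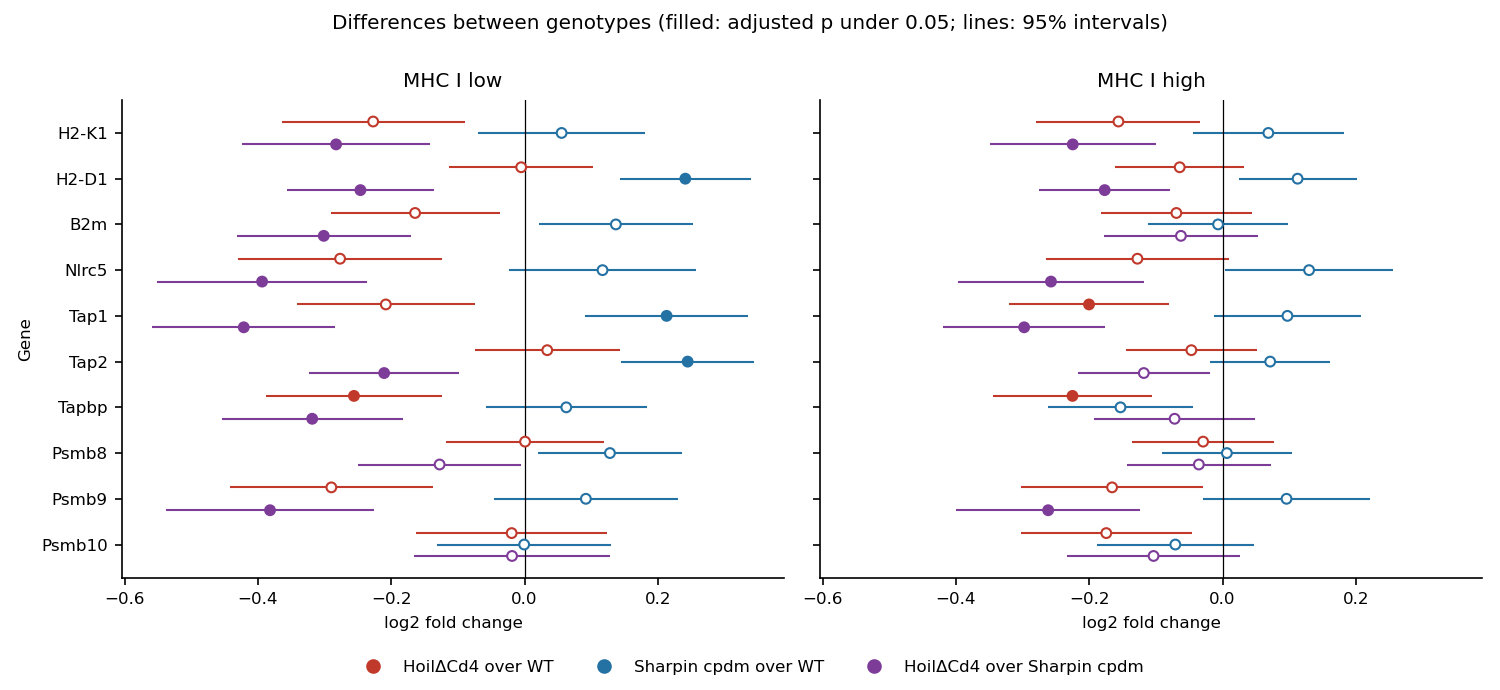
Points give the fitted log2 fold change between genotypes (horizontal axis) for each gene in MHC I low and MHC I high thymocytes, lines are 95% intervals, and filled points have an adjusted p under 0.05. HoilΔCd4 over Sharpin cpdm is below 0 for all 10 genes in both fractions, down to -0.42 for Tap1 in MHC I low, while Tapbp is the gene filled in both panels of HoilΔCd4 over WT.

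Markers of maturation also differed between genotypes, and the pattern depended on the fraction and the list. The summed level of 12 genes of mature single-positive thymocytes, such as Ccr7, Il7r and Klf2, was 1944 to 2045 CPM in HoilΔCd4, 2181 to 2244 CPM in WT and 2430 to 2489 CPM in Sharpin cpdm MHC I low samples. In MHC I high samples it was 3219 to 3377, 3747 to 3889 and 3687 to 3903 CPM, and there the ranges of WT and Sharpin cpdm overlapped. Between the mutants, 7 of these 12 genes were called lower in HoilΔCd4 in the early fraction and 4 of 12 in the late one (4.36% and 3.02% of all genes). Against WT, 1 and 3 were lower in HoilΔCd4 (0.563% and 2.81% of all genes) and 2 and 1 higher in Sharpin cpdm, in the same order of fractions. For Sharpin cpdm 5.31% of all genes were called higher in the early fraction and 8.62% in either direction in the late one. The sum of 12 double-positive markers was 1989 to 2128 CPM in HoilΔCd4, 1818 to 1871 in WT and 1794 to 1842 in Sharpin cpdm MHC I low samples. In MHC I high samples it was 2402 to 2852, 2183 to 2440 and 2477 to 2744 CPM. The sum of the 8 T-lineage markers was 5101 to 5787 CPM in HoilΔCd4, 4971 to 5268 in WT and 5595 to 5920 in Sharpin cpdm MHC I low samples. Cd3e (0.30 ± 0.05), Cd3g (0.24 ± 0.06), Lck (0.15 ± 0.05), Zap70 (0.23 ± 0.05) and Cd2 (0.23 ± 0.06) were called higher than WT in Sharpin cpdm MHC I low samples. Thy1 was called lower there (-0.24 ± 0.06), and Cd3d and Cd5 were not called. The part of these markers in the differences of the class I genes was not tested. The paper describes the make-up of these fractions by CD4 and CD8 as comparable among the genotypes. In sorted bulk samples fewer late cells and less RNA per cell cannot be told apart. The same holds for sex and genotype as far as they were joined.

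Whether the change between fractions itself differed between genotypes was tested by an interaction term. For H2-K1 the sort on H2-Kb limits this term as well. For HoilΔCd4 minus WT no gene was called by limma, edgeR or DESeq2 (0.398% of all genes were called), and none had an unadjusted p under 0.05. The largest values were -0.16 ± 0.08 for Psmb10 and 0.15 ± 0.09 for Nlrc5. For Sharpin cpdm minus WT none was called by these 3 tools either (3.13% of all genes), while 4 had an unadjusted p under 0.05. These were Tapbp (-0.22 ± 0.07, adjusted p = 0.0844), Tap2 (-0.17 ± 0.06, adjusted p = 0.0939), H2-D1 (-0.13 ± 0.06, adjusted p = 0.227) and B2m (-0.14 ± 0.07, adjusted p = 0.256), all with a smaller rise in Sharpin cpdm. Tapbp passed without WT mouse 1 (-0.30, adjusted p = 0.0372) and with the mouse as a fixed block (-0.24, adjusted p = 0.0258).

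Within fractions the 10 genes varied together to different degrees. With the mean of each fraction removed, Tap1 had the highest correlation over the 18 samples with the mean of the other genes (r = 0.889), followed by B2m (0.82) and Psmb9 (0.803), and Psmb8 (0.529) and Psmb10 (0.43) the lowest. Outside the group, genes most like the mean of the members without H2-K1 included C030006K11Rik (r = 0.947), Lgals3bp (0.943), Ifi213 (0.924) and Mov10 (0.924). These values are descriptions, since fractions of a mouse and libraries of a genotype are shared between the points.

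Genes that act on or beside the machinery were taken from lists fixed for this purpose. Of 18 interferon signalling genes, 14 were called higher in the MHC I high fraction of each genotype. Of all genes 27.5%, 23.5% and 27.2% were called higher in WT, HoilΔCd4 and Sharpin cpdm. Irf9, a transcription factor of type I interferon signalling, rose 2.01-fold in WT, and Irf1, an interferon-induced transcription factor, rose 2.31-fold in HoilΔCd4 and 2.44-fold in Sharpin cpdm. Socs1, an inhibitor of this signalling, was 1.73-fold lower in WT, 1.53-fold lower in HoilΔCd4 and 1.94-fold lower in Sharpin cpdm. The kinase gene Jak2 was lower in WT (1.15-fold) and Irf3 in HoilΔCd4 (1.19-fold). Genes were named here by the smallest p-values within each genotype. A genotype not given beside a gene is therefore no sign that the gene was unchanged there. The same holds for the lists that follow.

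Between genotypes, Irf1 was lower in HoilΔCd4 than in WT, both in the early (-0.42 ± 0.07, adjusted p = 0.000786) and in the late fraction (-0.35 ± 0.06, adjusted p = 0.000849). In the high fraction 5 of the 18 genes were called lower, among them Ifnar1 (-0.25 ± 0.05, adjusted p = 0.00515), and 2 higher, Socs1 (0.46 ± 0.08, adjusted p = 0.000945) and Ifngr1 (0.30 ± 0.07, adjusted p = 0.00656). Of all 12798 genes 360 were called lower there and 851 in either direction. Against Sharpin cpdm, 4 were lower in each fraction (4.36% and 3.02% of all genes), among them Irf1, Irf7 and Irf9, with Irf9 at -0.31 ± 0.06 in MHC I low (adjusted p = 0.002) and Irf1 at -0.34 ± 0.07 in MHC I high (adjusted p = 0.000979), and Socs1 was higher in both (0.33 and 0.67). In Sharpin cpdm against WT Ifngr2 was the 1 gene called, lower in the early (-0.31 ± 0.06) and in the late fraction (-0.34 ± 0.05). Of all genes 1565 and 1103 were called there in either direction.

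RNA of 5 NF-κB subunit genes was compared in the same samples. Of the 5, 4 were called lower in the MHC I high fraction of WT, among them Nfkb2 (1.25-fold) and Rel (1.32-fold), 2 in HoilΔCd4 (Rela, 1.2-fold, and Rel, 1.17-fold) and 1 in Sharpin cpdm (Rela, 1.35-fold). Of all 12798 genes 6956, 5793 and 6991 were called in either direction in these comparisons, and of those 3523, 3010 and 3486 were higher. Both mutants had lower levels than WT in the early fraction. HoilΔCd4 had 3 lower there (0.563% of all genes), including Relb (-0.51 ± 0.08, adjusted p = 0.000158) and Nfkb2 (-0.39 ± 0.06, adjusted p = 0.000394). Sharpin cpdm had 4 lower, including Nfkb2 (-0.55 ± 0.06, adjusted p = 6.99e-08) and Rel (-0.57 ± 0.08, adjusted p = 1.7e-05), and 1 higher, Rela (0.22 ± 0.06, adjusted p = 0.0146). Of all genes 1565 were called in that comparison, 680 of them higher. In the late fraction Relb was the 1 gene lower in HoilΔCd4 (-0.36 ± 0.07), and 3 were lower in Sharpin cpdm, led by Nfkb2 (-0.30 ± 0.05). Of all genes 2.81% were called lower in that HoilΔCd4 comparison, and 8.62% in either direction in that of Sharpin cpdm. In Sharpin cpdm MHC I low samples the class I genes H2-D1, Tap1 and Tap2 were higher, Rela was higher, and Nfkb1, Nfkb2, Relb and Rel were lower. In HoilΔCd4 MHC I low samples Relb and Nfkb2 were lower, and Tapbp was lower too. RNA of the subunits is not NF-κB activity, and the part of NF-κB in the class I levels was not tested.

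Among partners in peptide supply and loading, Psme1 and Psme2, which form the interferon-inducible PA28 cap of the proteasome, rose 1.57-fold and 1.53-fold in WT, 1.43-fold and 1.54-fold in HoilΔCd4 and 1.52-fold and 1.54-fold in Sharpin cpdm. Pomp, the proteasome assembly factor, was 1.42-fold, 1.5-fold and 1.55-fold lower in the late fraction of these genotypes, and Psme4 was lower in WT and Sharpin cpdm (1.09-fold and 1.14-fold). Psme1 was the 1 gene of these 9 called between a mutant and WT, lower in HoilΔCd4 MHC I high thymocytes (-0.22 ± 0.05, adjusted p = 0.0117). Of 13 loading chaperones and trimming peptidases, Erap1, which trims peptides in the endoplasmic reticulum, rose 1.42-fold, 1.62-fold and 1.39-fold, and 4, 8 and 5 in all were called higher in WT, HoilΔCd4 and Sharpin cpdm. These counts stand against 27.5%, 23.5% and 27.2% of all genes, and the WT count is close to that background. Sharpin cpdm MHC I low samples had 5 of the 13 called higher than WT (5.31% of all genes), led by Calr (0.33 ± 0.08, adjusted p = 0.00425) and Hspa5 (0.22 ± 0.06, adjusted p = 0.0208), and Lnpep lower (-0.57 ± 0.09, adjusted p = 0.00061). In HoilΔCd4 MHC I high thymocytes Hspa5 and Ide were the 2 called higher (0.28 ± 0.06 and 0.23 ± 0.06). Of the 11 other 20S subunits, 3 were higher and 1 lower in WT, among them Psmb1 (1.21-fold higher) and Psmb3 (1.2-fold lower), again close to the share of all genes.

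Of 10 partners of NLRC5 and of class II control, Nfya was called lower in the late fraction of all 3 genotypes (1.22-fold in WT, 1.16-fold in HoilΔCd4 and 1.17-fold in Sharpin cpdm). Nfyc, of the same trimeric factor that binds CCAAT, was lower in WT (1.19-fold) and Sharpin cpdm (1.21-fold), and Rfxank in HoilΔCd4 (1.27-fold). Ciita, the class II transactivator, was higher in WT (1.68-fold) at 1.09 to 3.1 CPM over all samples. Ezh2, a repressor of class I genes in other settings, was higher than WT in MHC I high thymocytes of HoilΔCd4 (0.33 ± 0.07, adjusted p = 0.00348) and of Sharpin cpdm (0.25 ± 0.06, adjusted p = 0.0121). Of 19 non-classical class I genes tested, 12 were called higher in the late fraction of WT, 13 in HoilΔCd4 and 12 in Sharpin cpdm (27.5%, 23.5% and 27.2% of all genes). H2-T22 rose 2.42-fold, 2.19-fold and 2.34-fold and H2-T10 2.31-fold, 2.09-fold and 2.4-fold, while H2-Q2 was 6.43-fold, 5.24-fold and 5.69-fold lower. Against Sharpin cpdm, 5 of the 19 were lower in HoilΔCd4 MHC I high thymocytes (3.02% of all genes), led by H2-T10 (-0.44 ± 0.07, adjusted p = 0.00026) and H2-T22 (-0.34 ± 0.06, adjusted p = 0.000796). Against WT, 3 were lower there (2.81% of all genes), led by H2-T23 (-0.24 ± 0.05, adjusted p = 0.00359), and H2-Q2 was higher (0.53 ± 0.09). Of 20 other genes of the class II interval, 5 were higher and 4 lower in the late fraction of WT, near the share of all genes called higher, with Rps18 1.66-fold higher and H2-Ob 2.57-fold lower.

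Reads can be shared between near-identical heavy chain genes. Of the windows of 75 bases in the annotated transcripts, 1.12% of those of H2-K1 and 6.33% of those of H2-D1 occurred also in another gene, 17.2% for Tapbp, 8.55% for Tap2, 8.22% for Psmb9, 4.57% for Tap1 and 3.0% for Psmb8, and none for B2m, Psmb10 and Nlrc5. Counts of H2-K1, H2-D1 and their non-classical relatives summed to 1 feature of 21 genes gave a difference between HoilΔCd4 and Sharpin cpdm of -0.21 in MHC I low (adjusted p = 0.0129) and -0.27 in MHC I high thymocytes (adjusted p = 0.00035). The same sum differed from WT by 0.15 in Sharpin cpdm MHC I low (adjusted p = 0.0414), against 0.24 for H2-D1 alone, and by -0.17 in HoilΔCd4 MHC I high thymocytes (adjusted p = 0.023), where neither gene alone was called. The span of B2m overlaps the counted gene Patl2, that of Tapbp the counted gene Gm19412 and that of Nlrc5 the counted gene 9330175E14Rik, so their counts carry that uncertainty.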

How the data were processed

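CD69+ MHC I low and MHC I high thymocytes of 9 mice (3 per genotype) were sorted by the authors, who excluded dead cells and cells with CD25, CD44 or markers of other lineages. They sequenced single-end reads of 75 bases from TruSeq libraries, mapped them to mm10 with subread and counted them with featureCounts and its inbuilt RefSeq annotation. The deposited values are raw counts per gene, without normalization or pooling, and the settings for strand and multi-mapping reads are not given in the sources used here. Of 27179 genes, the fit used those reaching 0.5 CPM in 3 or more samples, without predicted genes, chromosome Y and Xist. Values of log2 CPM (TMM factors 0.9873 to 1.015, prior count 1) were fitted by limma with 1 coefficient for each of the 6 groups, with weights per sample (0.6282 to 2.423) and the mouse as a random block (consensus correlation 0.224), with trended and robust empirical Bayes. Adjusted p-values are Benjamini-Hochberg values over 12798 genes and 0.05 was the threshold. The software was limma 3.58.1 and statmod 1.5.0 in R 4.3.3, with DESeq2 1.42.0 and edgeR 4.0.16 for alternatives. Both fractions came from the same animal, and their deviations from group means correlated in all 9 mice (r from 0.0702 to 0.256). The fits were tested on simulated data.

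The members and lists were chosen with earlier results of these data known. Named were all 10 members in each comparison, up to 2 called genes per direction with the smallest p from each pathway list, and the 5 genes most alike, except for items not reported here. Settings tried beside it were the edgeR and DESeq2 tests, library-size scaling, other filters (1 count in all, 10 in each sample), no weights, no block, the mouse as a fixed block, a prior count of 3, only the groups compared, Xist as a covariate, summed heavy chain counts and each mouse left out. Symbols, coordinates and promoters are from RefSeq (GRCm38.p6), and transcripts from GENCODE vM21. Mouse numbers do not pair animals across genotypes. Mice are the replicates. At the depth of these libraries at least 400 reads stood behind each member's value in a sample, and counting error is only part of the spread.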

Additional observations from a re-analysis of the deposited data

How the results depend on the processing

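None of the 44 called differences of the 10 genes changed sign under the other settings that were run for it or with any of the 9 mice left out. The mouse as a fixed block was run for the fractions and interactions and the summed heavy chains for H2-K1 and H2-D1. The counts of genes higher in the MHC I high fraction (9, 8 and 8) were the same throughout. For HoilΔCd4 against WT in MHC I low thymocytes, where 1 gene was called, edgeR, DESeq2, library-size scaling, the filter of 10 counts, no sample weights and a prior count of 3 each gave 2, Xist as a covariate gave 3 (H2-K1, Tap1 and Psmb9, not Tapbp), and no filter and a fit of only the groups compared gave 0, with 0 to 4 over the mice left out. In MHC I high thymocytes (2 called) edgeR, DESeq2, no filter, no weights and only the groups compared gave 1, Xist as a covariate kept the count with H2-K1 in place of Tapbp, and the mice left out gave 0 to 5. Between HoilΔCd4 and Sharpin cpdm in MHC I high thymocytes (5 called) edgeR, DESeq2 and no filter gave 3 and no weights gave 2, with 0 to 5 over the mice left out. In Sharpin cpdm against WT in MHC I high thymocytes and in the Sharpin cpdm interaction the count of 0 became 1 with some mice left out. Over all genes, limma, edgeR and DESeq2 called 851, 404 and 484 for HoilΔCd4 against WT and 1103, 521 and 601 for Sharpin cpdm against WT in MHC I high thymocytes, 861, 518 and 611 between the mutants there, 51, 1 and 21 for the HoilΔCd4 interaction and 400, 30 and 133 for that of Sharpin cpdm, and limma and DESeq2 called 126 and 191 for HoilΔCd4 against WT in MHC I low thymocytes. The causes of these changes were not tested.

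The mouse was the pairing of the fractions. With no replicate block for the mouse, the count in HoilΔCd4 against WT, MHC I low, was 0 in place of 1, and Psmb8 there was -0.00158. With the mouse as a fixed replicate block the Sharpin cpdm interaction had 1 call. The block changed no other count of calls.

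Signs that turned belonged to differences near 0 that were not called. Psmb8 in HoilΔCd4 against WT, MHC I low, was -0.00354 by edgeR, -0.000804 by DESeq2, -0.00483 with library-size scaling, -0.00186 without a filter, -0.00323 with the filter of 10 counts, -0.00461 without weights and -0.00412 with only the groups compared. In Sharpin cpdm against WT, MHC I high, it was -0.027 by edgeR, -0.0294 by DESeq2, -0.00361 without a filter and -0.0254 without weights. With Xist as a covariate the values were 0.0438 for Psmb10 in HoilΔCd4 MHC I low, 0.00411 for Psmb8 in HoilΔCd4 MHC I high, -0.00713 for H2-K1 and 0.0475 for Psmb10 in Sharpin cpdm MHC I low, and 0.0426 for B2m in Sharpin cpdm MHC I high. Tap2 between the Sharpin cpdm fractions was -0.000588 by edgeR and -0.000915 without weights, and the HoilΔCd4 interaction of Tap1 was -0.000297 without a filter. With heavy chain counts summed the interactions set beside H2-K1 were -0.111 (HoilΔCd4) and -0.0459 (Sharpin cpdm). The subunit ratio differed from WT by 0.0237 for Psmb8/Psmb5 alone in HoilΔCd4 MHC I low, by -0.171 for Psmb10/Psmb7 alone in Sharpin cpdm MHC I low and by 0.0188 for Psmb8/Psmb5 alone in Sharpin cpdm MHC I high.

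Over the mice left out, values in HoilΔCd4 against WT ran from -0.0428 to 0.0189 for H2-D1, -0.0653 to 0.0416 for Psmb10 and -0.0332 to 0.0209 for Psmb8 (MHC I low), and from -0.091 to 0.00192 for Psmb8 (MHC I high). In Sharpin cpdm against WT they ran from -0.0484 to 0.0184 for Psmb10 (low), -0.0542 to 0.037 for Psmb8 and -0.0919 to 0.0338 for B2m (high). Between the mutants they ran from -0.0624 to 0.0416 for Psmb10 (low), -0.1 to 0.00309 for Tapbp and -0.06 to 0.0052 for Psmb8 (high). Tap2 between the Sharpin cpdm fractions ran from -0.0122 to 0.0235. HoilΔCd4 interactions ran from -0.0362 to 0.0767 for Tap1, -0.0281 to 0.131 for H2-K1, -0.0543 to 0.0859 for Tapbp and -0.0823 to 0.00552 for Psmb8, and Sharpin cpdm interactions from -0.0358 to 0.0811 for Psmb9, -0.0295 to 0.0618 for H2-K1 and -0.025 to 0.0688 for Nlrc5.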
